A study of Mus musculus with 2 samples.

Results

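Atoh1, Barhl1, Barhl2, Neurod1, Neurod2, Neurod4, Neurog1, Neurog2, Nhlh1 and Nhlh2 are 10 transcription factor genes chosen by name from the 21670 annotated coding genes (autosomes and chromosome X). Every deposited DNase-seq peak at their coding starts, in their gene bodies and within 50 kb of either side was collected. That gave 205 of the 193414 peaks of the study's 2 libraries. DNase-seq cuts accessible DNA with DNase I: dense cuts are called as peaks, and short protected stretches are called as footprints. The libraries came from cerebellum of male B6CASTF1/J mice, a hybrid of a laboratory strain with the wild-derived CAST strain, aged 4 days. The labels name 3 males for each library, so each is taken here as a pool, and number the libraries as biological replicates 1 and 2. They also give both libraries 1 and the same donor identifier, so the SD may not be a spread between independent samples. They form 1 group with no mutation, treatment or second age, so no comparison between conditions and no test over samples was possible. Values are given for each library, and a spread is the SD with n = 2.

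The basic helix-loop-helix (bHLH) proteins encoded by 8 of the 10 genes pair with E proteins and bind E-boxes, short palindrome-like DNA words written CANNTG. Atoh1 is required for rhombic lip progenitors to become granule cells, and it maintains its own transcription through an enhancer 3′ of the gene. Neurod1 drives granule neuron differentiation and survival, Nhlh1 marks young neurons as they leave the cycle, and Barhl1 and Barhl2 are homeodomain proteins induced downstream of Atoh1. Neurog1 and Neurog2 are better known from GABAergic cerebellar precursors, sensory ganglia and cortex. Neurod2 acts in postmitotic neurons of cerebellum and cortex, and Neurod4 in retina and hindbrain. Granule cells are therefore only part of what the 10 genes are known for, and the label of the set was not checked beyond the marker genes below. In bulk tissue, fewer cells of a type and less open chromatin per cell cannot be told apart.

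Replicate 1 held 61896 peaks and replicate 2 held 131518, with stricter deposited lists of 36611 and 79019. The peak value is the authors' depth-normalised signal, and across genes open at the promoter in both libraries it was higher in replicate 2 by a median of 1.02 on the log2 scale. The libraries also stood apart in regional marker genes. Promoter peaks of 20 forebrain genes numbered 6 in replicate 1 and 17 in replicate 2, with summed values of 5.38 and 31.1, while 15 Hox genes of hindbrain had 9 and 5, with sums of 10.7 and 4.40. Among the forebrain genes, Emx1 and Tbr1 had a promoter peak in replicate 2 alone, and Nkx2-1, Lhx6 and Eomes had none. Of 8 granule lineage genes, 7 had a promoter peak in replicate 1 and 8 in replicate 2, beside 59.9% and 65% of all coding genes. Pax6 had its peak in replicate 2 alone. Atoh1 and Neurod1 are also on this list, so it is not independent of the set. Of 4 genes of cerebellar region identity, En2 was open in both libraries, Pax2 in neither, Gbx2 only in replicate 1 and En1 only in replicate 2. The part of regional tissue composition in any difference between the libraries below was not tested.

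Sequences from the reference genome show the words that the results refer to; the animals are hybrids, and their own alleles may differ from the reference. The first group is printed with E-boxes in capitals. It holds the only shared site in the 6 kb past the 3′ end of Atoh1 (chr6:64734701-64734960, plus strand, intergenic) and the strongest shared distal sites of Barhl2 (chr5:106420981-106421160, plus strand, intergenic) and Neurod1 (chr2:79499401-79499580, plus strand, intergenic). It also holds the stretches just upstream of the starts of Neurod1 (chr2:79456752-79456886, minus strand) and Neurod2 (chr11:98329649-98329895, minus strand), from the RefSeq promoter table on GRCm38.p6. Distal means over 1000 bp from every coding start.
Atoh1 3′ site: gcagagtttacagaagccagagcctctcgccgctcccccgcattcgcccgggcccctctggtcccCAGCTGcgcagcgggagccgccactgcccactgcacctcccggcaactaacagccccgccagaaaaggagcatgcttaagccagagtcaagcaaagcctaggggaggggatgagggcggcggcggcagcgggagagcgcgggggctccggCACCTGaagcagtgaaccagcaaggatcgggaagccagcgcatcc
Barhl2 distal site: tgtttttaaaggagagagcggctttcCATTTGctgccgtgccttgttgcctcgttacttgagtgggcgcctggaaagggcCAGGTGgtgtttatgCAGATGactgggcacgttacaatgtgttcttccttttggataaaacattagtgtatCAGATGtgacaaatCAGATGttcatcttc
Neurod1 distal site: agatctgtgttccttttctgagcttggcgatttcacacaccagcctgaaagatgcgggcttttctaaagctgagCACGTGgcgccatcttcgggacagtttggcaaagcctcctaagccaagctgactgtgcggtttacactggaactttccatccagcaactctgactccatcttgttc
Neurod1 upstream stretch: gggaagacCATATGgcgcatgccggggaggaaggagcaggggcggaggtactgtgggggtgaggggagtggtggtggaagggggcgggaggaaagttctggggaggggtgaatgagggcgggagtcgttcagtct
Neurod2 upstream stretch: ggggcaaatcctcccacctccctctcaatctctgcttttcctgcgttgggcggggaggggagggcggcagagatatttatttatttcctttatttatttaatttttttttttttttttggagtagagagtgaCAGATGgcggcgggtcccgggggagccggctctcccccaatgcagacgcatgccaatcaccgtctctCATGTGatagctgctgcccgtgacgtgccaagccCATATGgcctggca

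The second group shows what the strongest shared distal sites of 7 of the 10 loci held, of which 3 are printed. Capitals mark the core of a word like that bound by CTCF, the zinc finger protein of chromatin insulation: CCA, any 3 bases, G, any 2 bases and GGC. This core was chosen after the sequences had been read. The sites are those of Barhl1 (chr2:28924001-28924180, intergenic), Neurod2 (chr11:98342661-98342900, intergenic) and Neurog1 (chr13:56279561-56279720, intergenic), all on the plus strand.
Barhl1 distal site: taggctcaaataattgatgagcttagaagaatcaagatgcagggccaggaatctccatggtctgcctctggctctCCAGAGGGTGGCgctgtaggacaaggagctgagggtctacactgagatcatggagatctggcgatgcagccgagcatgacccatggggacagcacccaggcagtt
Neurod2 distal site: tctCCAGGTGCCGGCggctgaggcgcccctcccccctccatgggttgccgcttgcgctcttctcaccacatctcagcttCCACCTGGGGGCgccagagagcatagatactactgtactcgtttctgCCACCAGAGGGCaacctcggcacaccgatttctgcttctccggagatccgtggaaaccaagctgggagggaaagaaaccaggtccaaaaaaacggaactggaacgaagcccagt
Neurog1 distal site: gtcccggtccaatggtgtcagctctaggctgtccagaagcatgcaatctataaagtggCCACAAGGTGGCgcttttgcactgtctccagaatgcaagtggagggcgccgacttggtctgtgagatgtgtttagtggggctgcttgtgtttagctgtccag

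A gene was counted as open in a library when a peak of the less strict list overlapped the 500 bp on either side of a coding start, and its value is that of the strongest such peak. By this rule 7 of the 10 genes were open in replicate 1 and 6 in replicate 2, where 59.9% and 65% of all coding genes were open. The 6 open in both were Atoh1, Neurod1, Neurod2, Neurod4, Neurog1 and Neurog2, beside 58.9% of all coding genes. Barhl2 was open in replicate 1 alone, and Barhl1, Nhlh1 and Nhlh2 in neither. The share of open members was thus close to that of coding genes in general. In the stricter lists 1 gene was open in replicate 1 and 5 in replicate 2, and Neurod1 alone was open in both, beside 52.3% of all coding genes. For each stricter list alone the share of all coding genes is at least this 52.3%, and its exact value is not given here.

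Atoh1 (ENSMUSG00000073043.5, chr6:64729125-64731245, plus strand) had a promoter value of 0.587 in replicate 1 and 0.492 in replicate 2, a mean of 0.540 ± 0.0670 (SD, n = 2). These values ranked at the 33.6th and 38th percentile of all peaks of their library, so the start of this progenitor gene was among the weaker open sites in both. The strongest peak lay in the coding exon in replicate 1 and across the start itself in replicate 2, and these peaks did not overlap. Each overlapped a peak of the other library that was not the strongest promoter peak there. The replicate 2 peak across the start, chr6:64728961-64729160, met a replicate 1 peak of 0.568 that ended just upstream of the start, and the replicate 1 exon peak met one of 0.452 in replicate 2. If 1 step of the value scale stands for 1 cut, the Atoh1 values rest on 91 and 74 cuts. Their exact 95% Poisson intervals, 0.473 to 0.721 and 0.387 to 0.618, overlap and cover counting error only.

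Among the Neurod genes the libraries differed most at Neurod2 (ENSMUSG00000038255.6, chr11:98325415-98329648, minus strand). Its promoter value was 1.34 in replicate 1 and 4.34 in replicate 2 (2.84 ± 2.13, SD, n = 2). The log2 difference of 1.70 stood above the all-gene median of 1.02. The counting intervals, 1.16 to 1.53 and 4.02 to 4.69, did not overlap. They cover counting error only and make no allowance for the shift of all genes. Bases under an FDR of 0.05 within the promoter window numbered 151 in replicate 1 and 1001, the whole window, in replicate 2. Forebrain marker promoters were also more often open in replicate 2, 17 of 20 against 6 of 20, beside 65% and 59.9% of all coding genes. The part of forebrain tissue in the Neurod2 difference was not tested.

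Neurod1 (ENSMUSG00000034701.9, chr2:79452521-79456751, minus strand) was open in both libraries under either list. It reached 1.48 in replicate 1 and 1.82 in replicate 2 (1.65 ± 0.244, SD, n = 2), at the 75.3rd and 82.8th percentile of peaks. Its rise of 0.30 on the log2 scale was smaller than the 1.02 of all genes. Neurod4 (ENSMUSG00000048015.4, chr10:130268152-130280240, minus strand) was weaker, at 0.735 and 0.466 (0.601 ± 0.191, SD, n = 2), on nearly the same bases in both libraries.

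Neurog1 (ENSMUSG00000048904.5, chr13:56250478-56252163, minus strand) was at 0.645 in replicate 1 and 1.06 in replicate 2 (0.855 ± 0.296, SD, n = 2). Neurog2 (ENSMUSG00000027967.8, chr3:127633135-127635631, plus strand) was at 0.671 and 0.565 (0.618 ± 0.0746, SD, n = 2). At Neurog2 the library values were close, but the peaks were not the same. Replicate 1 had chr3:127633203-127633305 in UTR sequence past the start, and replicate 2 had chr3:127632631-127632814 upstream and chr3:127633439-127633608 downstream of it, with no overlap.

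Of the Barhl genes, Barhl2 (ENSMUSG00000034384.11, chr5:106452523-106458166, minus strand) had a single promoter peak of 0.793 in replicate 1, at chr5:106458601-106458720, centred at -495 bp from the start. It reached in from the edge of the window, and within 250 bp of the start there was none. Replicate 2 had no base under an FDR of 0.05 in that window, against 122 in replicate 1. Barhl1 (ENSMUSG00000026805.14, chr2:28907679-28916668, minus strand), Nhlh1 (ENSMUSG00000051251.3, chr1:172052292-172057573, minus strand) and Nhlh2 (ENSMUSG00000048540.8, chr3:102010076-102015492, plus strand) had 0 such bases in either library. That was usual for closed promoters: of 7364 coding genes without a promoter peak in either library, 1.28% had such a base in replicate 1 and 1.81% in replicate 2.

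**Figure D1:**
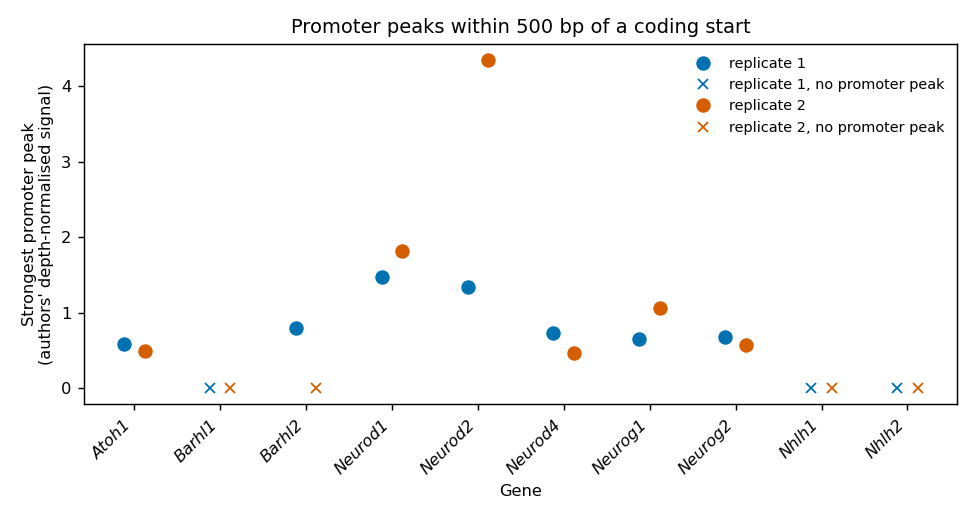
The strongest promoter peak of each of the 10 genes (authors' depth-normalised signal, linear axis from 0) is shown as a dot for each library, and a cross at 0 marks a library without a promoter peak. Neurod2 in replicate 2, at 4.34, stands far above its value of 1.34 in replicate 1, while Atoh1 lies between 0.492 and 0.587.

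Among the 6 genes open in both libraries, Neurod1, Neurod2 and Neurog1 were higher in replicate 2, that is 3 of 6 where 92.6% of all such genes were. Atoh1, Neurod4 and Neurog2 were lower, by log2 differences of -0.25, -0.66 and -0.25. Only Neurod2 exceeded the shift of all genes. With n = 2, none of these differences was tested.

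CpG content, which goes with open promoters in general, divided the genes in part. Barhl2 lay in the highest of 10 classes of promoter CpG content, in which 94.9% of genes were open in both libraries, yet it was open in 1. Neurog1 and Neurog2 lay in class 9 (93.3% open in both), Atoh1 in class 7 (90.3%) and Neurod1 in class 6 (86.7%). Barhl1 and Neurod2 shared class 5 (68.3%), the first closed and the second open. Neurod4, in class 3, was open where 17.8% of its class were, and the closed Nhlh1 and Nhlh2 were in class 2, with 8.9%.

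The 10 loci held 78 peaks in replicate 1 and 127 in replicate 2, and the stricter lists held 49 and 79 peaks there. Over the whole genome the lists held 61896 and 131518 peaks, and the stricter lists 36611 and 79019. Peaks of the libraries met at 42 sites of the loci, and 21 of these were in the stricter lists of both. The matching share of all shared sites of the genome is not given here. By position, 6 were at the promoters of the 10 genes, with 2 of them at Atoh1 and 0 at Neurog2, 2 lay 500 to 1000 bp from their starts, 4 in gene bodies, 25 in the flanks and 5 at the starts of neighbouring genes. The higher value was in replicate 2 at 25 of the 42 sites (59.5%), with a median log2 difference of 0.19. Of all 42382 shared sites of the genome, 80.2% were higher in replicate 2, with a median of 0.63. At the 29 distal sites of the 10 loci the count was 17 (58.6%) and the median 0.04, where 75.1% of all distal sites were higher, with a median of 0.49. Sites of 1 locus share their surroundings, and the difference from the genome was not tested.

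**Figure D2:**
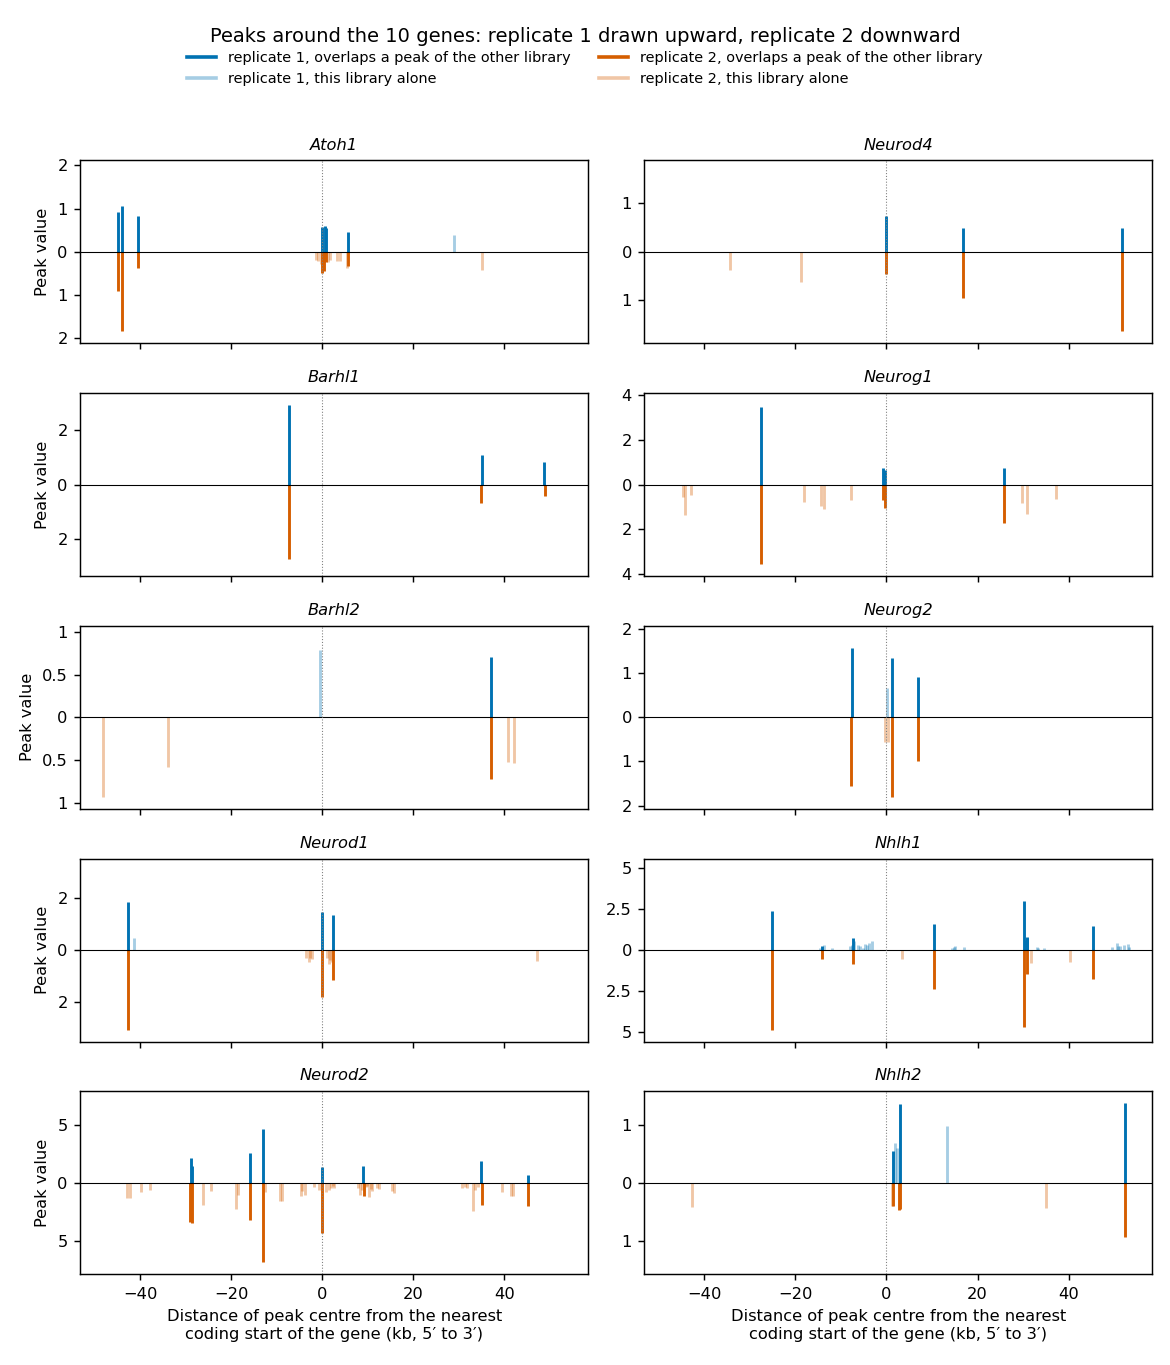
Each panel shows the peaks around a gene by distance of the peak centre from the nearest coding start (kb, 5′ to 3′ along the gene) and by peak value, replicate 1 upward and replicate 2 downward, on an axis of its own. Dark lines overlap a peak of the other library and pale lines do not; the crowding of pale lines is in replicate 2 at Neurod2 and in replicate 1 at Nhlh1.

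At the Atoh1 locus 8 peaks were called in replicate 1 and 16 in replicate 2, and 7 sites were shared. Of these, 2 were at the promoter, 1 lay 500 to 1000 bp from the start, at chr6:64729741-64730049 in the coding exon, with 0.561 and 0.246, and 1 lay past the 3′ end.

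The 3′ side of Atoh1, where its enhancer is known to lie, showed weak peaks only. Replicate 1 had a single peak in the 6 kb past the 3′ end, chr6:64734701-64734760, with 0.458. Replicate 2 had 4: chr6:64732293-64732397 and chr6:64732901-64732960, each with 0.206, chr6:64734401-64734600 with 0.379 and chr6:64734741-64734960 with 0.326. The last overlapped the replicate 1 peak, and together they form the shared site printed above, which begins 3456 bp past the gene. Neither library had a footprint in that site, and its E-boxes, CAGCTG and CACCTG, lie in sequence of 67.7% GC. The values of 0.458 and 0.326 ranked at the 23.6th and 16.7th percentile of peaks, and the overlap was absent from the stricter lists, since the replicate 1 peak is in the less strict list alone.

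Peaks also filled part of the single Atoh1 exon, covering 15.7% of the gene body in replicate 1 and 41% in replicate 2. The downstream part of the exon had weak peaks in replicate 2 alone, with 0.246 and 0.200.

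The Neurod2 locus departed most between the libraries. It held 8 peaks in replicate 1 and 50 in replicate 2, a difference of 42, and 41 of all coding genes (0.189%) had a difference at least as large. The median coding gene had 5 and 11 peaks, with a median difference of 4. All 8 replicate 1 peaks were shared. The 42 of replicate 2 alone had values of 0.299 to 2.38 with a median of 0.732, and 27 of them were in the stricter list. Peaks covered 1.8% of the Neurod2 gene body in replicate 1 and 46.4% in replicate 2. When replicate 2 was limited to as many peaks as replicate 1, 31 remained. The forebrain marker sums were 5.38 and 31.1, and those of 10 housekeeping genes were 35.7 and 80.3. Sums of the granule lineage genes (10.6 and 18.4) and of 6 Purkinje cell marker genes (6.67 and 9.08) were also higher in replicate 2. Those of the cerebellar region genes (2.73 and 1.78) and of the Hox genes (10.7 and 4.40) were lower. The part of forebrain tissue or of a shift of the whole library in the Neurod2 locus difference was not tested.

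The shared Neurod2 flank sites changed less than the promoter. The strongest, at -13133 bp from the start, had 4.61 in replicate 1 and 6.83 in replicate 2, and its neighbour chr11:98345341-98345520 had 2.59 and 3.19. A site 3′ of the gene, chr11:98294521-98294880, stayed at 1.87 and 1.93. By contrast, chr11:98284261-98284540 had 0.703 and 1.97.

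At Neurod1, 4 peaks were found in replicate 1 and 12 in replicate 2, and 3 sites were shared. Besides the promoter these were a site in the coding exon, chr2:79454141-79454460, with 1.35 and 1.16, and the distal site at -42740 bp, with 1.84 and 3.07. All 3 were in the stricter list of each library. The 9 peaks of replicate 2 alone were weak (0.293 to 0.519), and 1 of them was in the stricter list. In the distal site, the E-box CACGTG overlapped a footprint in each library.

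Neurod4 had 3 and 5 peaks, and all 3 replicate 1 peaks were shared. The far 3′ site chr10:130228361-130228520 had 0.484 in replicate 1 and 1.64 in replicate 2, and chr10:130263321-130263520 had 0.497 and 0.951. Both flanking sites were higher in replicate 2, where the Neurod4 promoter was lower.

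Neurog1 had 4 peaks in replicate 1, all shared, and 14 in replicate 2. Its strongest site, at -27478 bp, was nearly equal, with 3.48 and 3.56, at the 95th and 91.9th percentile. The 10 peaks of replicate 2 alone had values of 0.452 to 1.34, and 7 were in the stricter list. In the flanks lay 8 of them, and 2 were at the start of Cxcl14, a chemokine gene. On the 3′ side, chr13:56226241-56226460 had 0.755 and 1.72. The Neurog1 site just outside the promoter window, chr13:56252878-56253045, had 0.761 and 0.692.

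Neurog2 had 4 peaks in replicate 1 and 5 in replicate 2, and 3 sites were shared. Its upstream site chr3:127625341-127625540 had 1.57 and 1.55, the coding exon site chr3:127634161-127634380 had 1.35 and 1.80, and the downstream site chr3:127639941-127640140 had 0.903 and 0.991. All 3 exceeded the promoter peaks of the gene.

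Barhl1, without a promoter peak, had 3 peaks in each library and all were shared. The site at -7423 bp stood at 2.93 in replicate 1 and 2.73 in replicate 2, at the 92.2nd and 88.9th percentile of peaks. The other sites lay in introns of Ddx31, with 1.10 and 0.685 at chr2:28881348-28881520 and 0.832 and 0.419 at chr2:28867444-28867713. No peak lay in the Barhl1 gene body in either library.

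Barhl2 had 2 peaks in replicate 1 and 5 in replicate 2, and 1 site was shared, at 37095 bp from the start on the 3′ side. Its values were 0.703 and 0.718, and its sequence holds 5 E-boxes, of which 1 overlapped a footprint in both libraries. The 4 peaks of replicate 2 alone ranged from 0.519 to 0.931, and 3 of them were in the stricter list.

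Nhlh1 was the reverse of Neurod2, with 36 peaks in replicate 1 and 10 in replicate 2. More peaks in replicate 1 were found at 8.403% of coding genes, and 105 of them (0.485%) had a difference as large as the -26 of Nhlh1. The 27 peaks of replicate 1 alone had low values, 0.0968 to 0.548 with a median of 0.232, but 22 of them were in the stricter list. They lay in Vangl2, in Ncstn and between, and none was in the Nhlh1 gene body. In replicate 1, 18 of the 30 stricter-list peaks of this locus were under 0.3, a number that 0.531% of coding genes reached. At the 7 other loci with stricter-list peaks in replicate 1, the lowest such value ran from 0.839 to 3.48. What sets the Nhlh1 region apart was not tested.

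The highest ranked shared distal sites of Nhlh1 were stronger than these. The site at 10482 bp, past the 3′ end of the gene, had 1.59 and 2.35 in the libraries, and the Vangl2 intron site chr1:172012121-172012320 had 1.47 and 1.74. A site upstream, chr1:172064761-172065096, had 0.703 and 0.838.

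Nhlh2 was open within its gene body but not at its starts. The shared site chr3:102012759-102013214, across coding sequence and UTR, had 1.36 in replicate 1 and 0.472 in replicate 2. The flank site chr3:102062381-102062580 had 1.37 and 0.938. All 3 shared sites were lower in replicate 2, as at Barhl1.

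**Figure D3:**
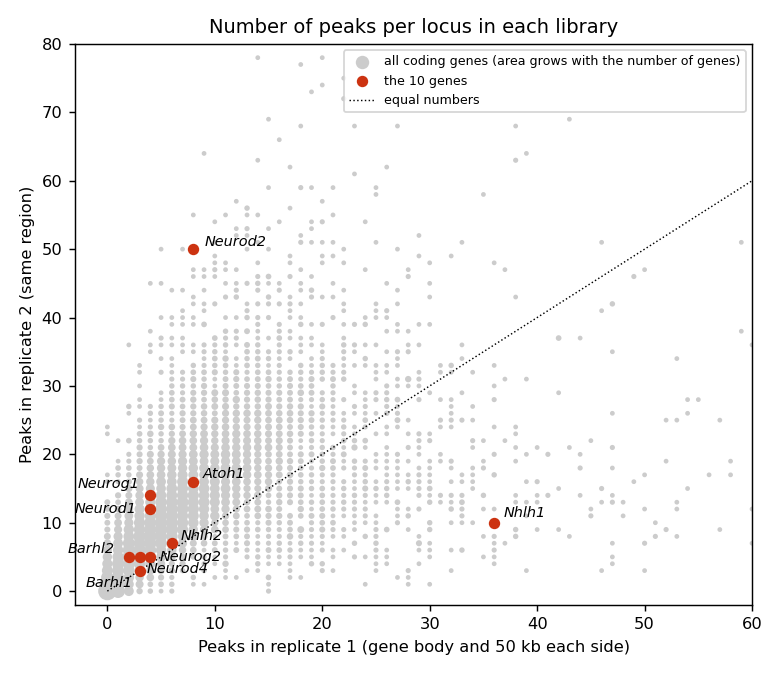
Each grey point gives the number of peaks in the gene body and 50 kb on either side in replicate 1 (horizontal) and replicate 2 (vertical), its area growing with the number of coding genes there, and red points are the 10 genes. Neurod2 (8 and 50) and Nhlh1 (36 and 10) lie on opposite sides of the dotted line of equal numbers; 40 coding genes lie outside the axes.

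Those 2 loci moved the agreement over the whole group. In replicate 1, 44 of 78 peaks (56.4%) overlapped a replicate 2 peak, beside 71.1% of all peaks, and without Nhlh1 it was 83.3%. In replicate 2, 43 of 127 (33.9%) overlapped a replicate 1 peak, beside 33.4% of all, and without Neurod2 it was 45.5%. Without both, the shares were 79.4% and 41.8%. The overlap is bounded by the larger number of peaks in replicate 2.

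**Figure D4:**
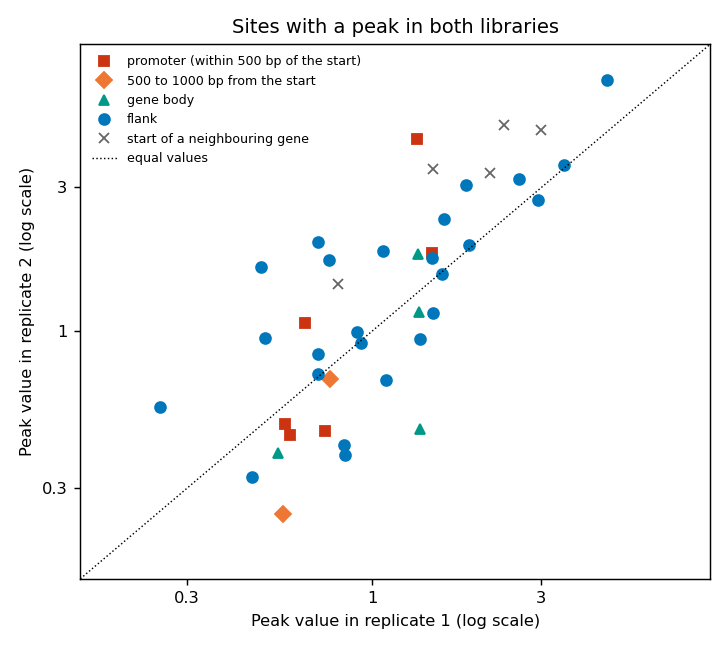
Each of the 42 sites with a peak in both libraries is placed by its value in replicate 1 and in replicate 2, on log axes, with symbols for its position; the dotted line marks equal values. The Neurod2 flank site (4.61 and 6.83) is at the top right, and the promoter of Neurod2 (1.34 and 4.34) lies farthest above the line among the promoters.

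Footprints numbered 120 at the 10 loci in replicate 1 and 269 in replicate 2. Most were inside peaks, 109 and 241, and the share of all footprints inside peaks is not given here. Overlap with a footprint of the other library was found for 48 (40%) in replicate 1 and 49 (18.2%) in replicate 2, where all footprints gave 56.3% and 23.3%. Exact agreement of both ends was seen at 2. Neurod2 held 23 and 115 footprints and Nhlh1 35 and 29. Without those loci 41.9% and 22.4% overlapped.

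At Atoh1, 4 of 11 replicate 1 footprints overlapped one of the 20 of replicate 2. At the Neurod2 promoter site there was 1 footprint in replicate 1 and 6 in replicate 2, and none was shared. An E-box lay in the 20 bp window of 12 footprints (10%) in replicate 1 and 25 (9.29%) in replicate 2, against 8.59% and 9.56% of all footprints, so the E-box share at these loci was close to that of the genome.

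The CTCF-like core was searched on both strands of the strongest shared distal site of each locus and found in 7 of 10 (70%): those of Atoh1, Barhl1, Neurod2, Neurod4, Neurog1, Nhlh1 and Nhlh2. Among the strongest shared distal sites of all coding genes, each window counted once, 44% held it, and among all 24085 shared distal windows 32.1%. At the 19 other shared distal windows of the 10 loci it was found in 3 (15.8%). Over all 29 shared distal windows of these loci it was in 10 (34.5%), near the 32.1% of all such windows. The match overlapped a footprint of both libraries at 6 of the 7 sites, and at Neurod4 of replicate 2 alone. With 10 sites and a word chosen after reading them, this is a description, and a match is not a measurement of binding.

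Other words were searched on both strands in windows of 200 bp, at the 29 shared distal sites of the loci and in 24085 shared distal windows of the genome. The genome had 23660 shared distal sites, so these windows were not counted in the same way as sites. The general E-box CANNTG was in 25 (86.2%) against 71.4%. Its form CAGATG was in 8 (27.6% against 20.2%), CAGCTG in 3 (10.3% against 19.6%), CAGGTG in 6 (20.7% against 18.5%), CACGTG in 2 (6.9% against 4.17%) and CATATG in 1 (3.45% against 2.62%). The general E-box was thus more frequent here than in the windows of the genome, and CAGCTG less frequent, at sites too few to read further. The homeodomain word CAATTA was in 4 (13.8% against 4.46%) and CCTGCTG, a Zic-like word, in 9 (31% against 15.9%). TGCCAA, of the NFI kind, was in 6 (20.7% against 18.1%) and AGGGGGC, part of a CTCF-like word, in 6 (20.7% against 14.6%). ATTGTT, of the Sox kind, was in 1 (3.45% against 5.87%) and TAAACG in 1 (3.45% against 1.45%). TGANTCA, of the AP-1 kind, and GACCACCCA, of the Gli kind, were in 0, against 5.13% and 0.233%.

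At the 6 shared promoter sites of the loci, CATATG was in 2 windows of 200 bp, those of Neurod1 and Neurod2. It was in 0.551% of 17615 shared promoter windows of the genome. In the upstream stretches printed above, it begins 127 bases before the Neurod1 start and 14 bases before the Neurod2 start. CAGATG and CATGTG begin 115 and 48 bases before the Neurod2 start. With 6 windows and 14 words searched, the count is a description.

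The partners and inhibitors of these bHLH proteins were described by the same rule, which takes a peak at any coding start. The E protein genes have many such starts, 9 for Tcf3, 44 for Tcf4 and 11 for Tcf12, where most of the 10 genes have 1. All 3 E protein genes were open in both libraries: Tcf3 at 2.75 and 5.89, Tcf4 at 2.15 and 6.81, and Tcf12 at 1.17 and 2.86. Each was higher in replicate 2. Of 10 genes of the Id, Hes and Hey families, 9 were open in both libraries, where 58.9% of all coding genes were, and Hes3 in neither. This list was drawn by family, and not every gene on it need be an inhibitor. The difference between these groups and the 10 genes was not tested. The Id proteins hold E proteins off DNA; Id2 stood at 4.06 and 8.79, Id4 at 3.37 and 9.28, Id3 at 1.39 and 2.58, and Id1 at 0.987 and 1.59. Hey2, a Notch target that represses proneural genes, had 4.57 and 8.14. All 9 were higher in replicate 2, with a median log2 difference of 1.12, near the 1.02 of all genes.

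Of 13 other neural bHLH genes, 6 were open in replicate 1, 10 in replicate 2 and 6 in both. Of all coding genes, 59.9%, 65% and 58.9% were. Neurod6, of cortical projection neurons, had 2.71 in replicate 2 alone, and Neurog3 had 0.386 in replicate 2 alone. Ptf1a, required for GABAergic cerebellar neurons, Olig3 and Bhlhe23 had no promoter peak in either library. Neurod6 is also on the forebrain list, where 11 of 20 genes were open in replicate 2 alone, and the part of that in its difference was not tested.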

How the data were processed

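DNase-seq libraries of 2 cerebellum pools were analysed as 1 group. Per the labels and description files, the authors aligned each to mm10 and deposited, for each library alone, 2 peak lists, the FDR of the cut rate and footprints. The deposited signal of a peak is depth-normalised by the authors by a factor not given in the sources used here, as are the aligner, the callers and their versions. The deposited FDR intervals hold a q-value under 0.05. Deposited footprints all carry the value 0.01 and were used by position only. Of the values, 99.998% in replicate 1 and 100% in replicate 2 were whole multiples of 0.00645 and 0.00665 (within 0.05 steps). Read totals are not in the files, so depth in reads is unknown.

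Genes were GENCODE M21 coding genes on GRCm38, and sequences were read from the RefSeq GRCm38.p6 genome. Overlap meant at least 1 bp, the longer list was the main one, a peak was in the stricter list if it overlapped a peak of it, and footprint words were searched in 20 bp. Python 3.11.15, pandas 2.3.3, numpy 2.4.6, scipy 1.17.1, pysam 0.24.0 and bedtools 2.31.1 were used, and the counting code was tested on simulated data. No test was run: with 1 group, counts are set beside the same share over all genes, peaks or windows. Members and lists were chosen with earlier results of these data known. The rule for names took the members, E protein and Id genes, Neurod6, Neurog3, the strongest promoter of the other lists, the strongest promoter peak and the strongest distal shared peaks of each member; other genes and peaks named were chosen after their values were seen. Alternatives were the stricter list, other windows, flanks and overlaps, equal numbers of peaks, the 5′-most start, other scalings and each library alone. Some genes and sites that the rule takes are not reported here.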

Additional observations from a re-analysis of the deposited data

How the results depend on the processing

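The number of the 10 genes open at the promoter in both libraries (6) was 6 with a window of 1000 bp or the 5′-most start and 4 with 250 bp, but 1 in the stricter lists and 3 with equal numbers of peaks. With each library left out in turn it was 6 to 7, which restates the counts of single libraries and cannot fall below the count in both. In replicate 1 (7) it fell to 1 in the stricter list, and in replicate 2 (6) to 3 with equal numbers. Genes stronger in replicate 2 numbered 3, 5 by percentile rank and 1 relative to the all-gene median. Under percentile rank the difference turned for Atoh1 (4.4 percentile points) and Neurog2 (4.5), and relative to the median for Neurod1 (-0.72 on the log2 scale) and Neurog1 (-0.30). The 44 shared peaks became 21 in the stricter lists and 23 with flanks of 20 kb. The shared site 3′ of Atoh1 (1) was 0 in the stricter lists, 0 with 50% reciprocal overlap and 0 with equal numbers. Overlapping footprints (48) were 2 with identical ends. The cause of these changes was not tested. No paired analysis was possible because there is 1 group.

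Depth in reads is unknown, n is 2, and replicate 2 has more peaks. A site without a peak was not detected at these depths.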
